A study of Mus musculus with 6 samples.

Results

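Retinoic acid is made from vitamin A by enzymes, carried in the cytoplasm by binding proteins and broken down by other enzymes, and 10 genes of these 3 steps were followed in the developing palate. Rdh10, Aldh1a1, Aldh1a2 and Aldh1a3 act in synthesis, and Dhrs3 reverses its first step. Crabp1 and Crabp2 encode the cytoplasmic binding proteins, and Cyp26a1, Cyp26b1 and Cyp26c1 act in breakdown. All 10 genes were found among the 24421 rows of each deposited table. They were chosen by gene symbol for these roles, with earlier results of the same comparison known. Every difference between genotypes given for these 10 genes is therefore a description, and the p-values printed beside them are not independent evidence.

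The tissue was mouse anterior palatal mesenchyme of stage E12.5, on a C57BL/6 background, freed of its epithelium by Dispase II. There were 3 wildtype samples and 3 samples of the genotype Wnt1Cre;Meis2f/f, called mutant from here on, in which the Cre recombinase acts on a floxed allele of Meis2, a TALE homeodomain transcription factor. Wnt1Cre is active in the neural crest, the source of most palatal mesenchyme, while vessels, blood cells and muscle cells of the sample come from other sources. No library carried Cre alone or the floxed allele alone, so an effect of the Wnt1Cre transgene cannot be told apart from one of the Meis2 deletion. The labels call the samples biological replicates and do not say whether embryos were pooled. In bulk tissue such as this, fewer cells of a type and less RNA per cell cannot be told apart.

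The deposited tables hold comparisons, not libraries, yet the reads of each library could be solved from them. A base mean is the mean of read counts divided by each library's size factor, so with the size factors known the whole read counts of a gene can be searched for that give its base means to their last printed digit. The size factors were read from genes with a single read in all. For each of the 10 genes exactly 1 set of whole counts fitted the table of 6 libraries and the table of 4 of them. The libraries are named A, B and C on the wildtype side and D, E and F on the mutant side, in letters that match no replicate number of the labels. The table of 4 libraries leaves out B and E. Over the genes that could be solved the libraries held 7012609 to 12707248 reads, with size factors from 0.7745 to 1.438. A normalised count below is the solved read count divided by the size factor.

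Meis2 itself had normalised counts of 1526, 1549 and 1695 in libraries A to C and of 1250, 1378 and 1218 in libraries D to F, so the mutant side stood at 80.62% of the other. With 6 libraries the authors' deposited table gave a log2 fold change of -0.28, with an SE of 0.092 and an adjusted p of 0.0743 (DESeq2 Wald test). With 4 libraries the authors' deposited table gave -0.33 (adjusted p 0.0213). The side with less Meis2 was read as the mutant, so this gene is no independent check of the labels and every direction below rests on that reading. The sources used here do not say which exons are floxed, and reads from the rest of the gene are still counted.

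As background, retinol is oxidised to retinal by RDH10, and DHRS3 reduces retinal back to retinol. The 3 ALDH1A enzymes then oxidise retinal to retinoic acid, which enters the nucleus and acts on the receptors RAR and RXR. CRABP2 is known to hand retinoic acid to the receptors, CRABP1 to bind it in the cytoplasm, and the CYP26 enzymes oxidise it to products that are cleared. In the face and palate both too much and too little retinoic acid are known to disturb growth and to cause clefts. ALDH1A2 is the main source of retinoic acid in much of the early embryo, and Cyp26a1 and Dhrs3 are known as genes that retinoic acid itself induces.

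The promoters of 3 of these genes are printed here because Aldh1a2, Crabp1 and Cyp26a1 had the largest differences between the genotypes among the 9 members whose base mean was 10 or more. Each sequence runs 5′ to 3′ on the plus strand of GRCm38.p6 over the 250 bases before the RefSeq start of the gene. Capitals mark the letters of a motif that was searched on both strands.

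Aldh1a2, chr9:71215539-71215788: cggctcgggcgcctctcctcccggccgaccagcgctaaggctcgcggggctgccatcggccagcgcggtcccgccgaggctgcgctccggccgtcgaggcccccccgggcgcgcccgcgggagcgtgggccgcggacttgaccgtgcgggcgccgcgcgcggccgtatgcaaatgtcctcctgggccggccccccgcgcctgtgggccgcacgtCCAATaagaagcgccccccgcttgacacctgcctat
Crabp1, chr9:54764498-54764747: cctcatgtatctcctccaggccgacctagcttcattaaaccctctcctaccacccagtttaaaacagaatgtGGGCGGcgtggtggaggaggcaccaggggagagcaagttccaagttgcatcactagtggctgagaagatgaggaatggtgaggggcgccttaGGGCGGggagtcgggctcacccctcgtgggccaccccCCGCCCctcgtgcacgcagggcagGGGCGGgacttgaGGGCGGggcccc
Cyp26a1, chr19:37697558-37697807: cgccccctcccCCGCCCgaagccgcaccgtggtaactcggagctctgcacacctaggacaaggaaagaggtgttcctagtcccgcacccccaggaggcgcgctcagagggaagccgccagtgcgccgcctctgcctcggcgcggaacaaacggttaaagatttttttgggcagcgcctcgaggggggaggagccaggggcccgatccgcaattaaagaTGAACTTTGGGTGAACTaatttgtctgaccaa

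Cyp26a1 carries, at positions -32 to -16 with the start counted as 0, a retinoic acid response element made of a direct repeat with a spacing of 5 bases. The match on the plus strand reads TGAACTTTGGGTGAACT (chromosome 19, 37697776 to 37697792). Of all 32851 promoter windows of 300 bases, 250 before and 50 after the start, 0.0974% held such an element, which is 32 windows. The windows of Aldh1a2 and Crabp1 held none. The letters TGACAG, a site known to be bound by MEIS proteins, were found in 19.2% of all windows and in none of these 3. Among the 10 windows of members, both windows of Aldh1a1 held it, with 1 match each, and no other did.

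The Aldh1a2 window is unusually rich in G and C, at 78% against a median of 52.7% over all windows, and holds 50 CpG pairs and 1 CCAAT box, a motif that 37.4% of windows have. The Crabp1 window, at 65% G and C, holds 5 matches of the GC box GGGCGG, a motif that 35.7% of windows have. The Cyp26a1 window holds 2 GC boxes and 1 TATAAA, a motif of 13.6% of windows, and of these the TATAAA and 1 GC box lie after the start. A match is a run of letters, not a site shown to be used. Windows were found for 7 of the 10 genes, and Aldh1a3, Rdh10 and Crabp2 were not searched.

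Over the 10 genes, transcripts of the enzyme Aldh1a2 and of the binding protein Crabp1 fell in the mutant by the DESeq2 Wald test of the authors' deposited table (adjusted p under 0.05), and transcripts of no member rose. A gene with a base mean of 10 or more is called measured. The 7 other measured members were not called, and Aldh1a1, the unmeasured member, had no adjusted p. Of all 14942 genes with an adjusted p, 2.9% were called, 1.16% lower and 1.75% higher. By p under 0.05 without adjustment, Dhrs3 and Cyp26a1 joined them, which made 4 measured members lower and none higher. Of all 20996 genes with a p, 3.72% were lower and 3.96% higher. Among the 14577 measured genes, 759 were lower and 796 higher. With 4 libraries the same 2 members were called lower and 0 higher, where 2.3% of 14548 genes were called, 0.99% lower and 1.31% higher, as the authors' deposited table lists them. For the 9 measured members the authors' deposited table held a median log2 fold change of -0.16, beside -0.01 over all measured genes.

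**Figure D1:**
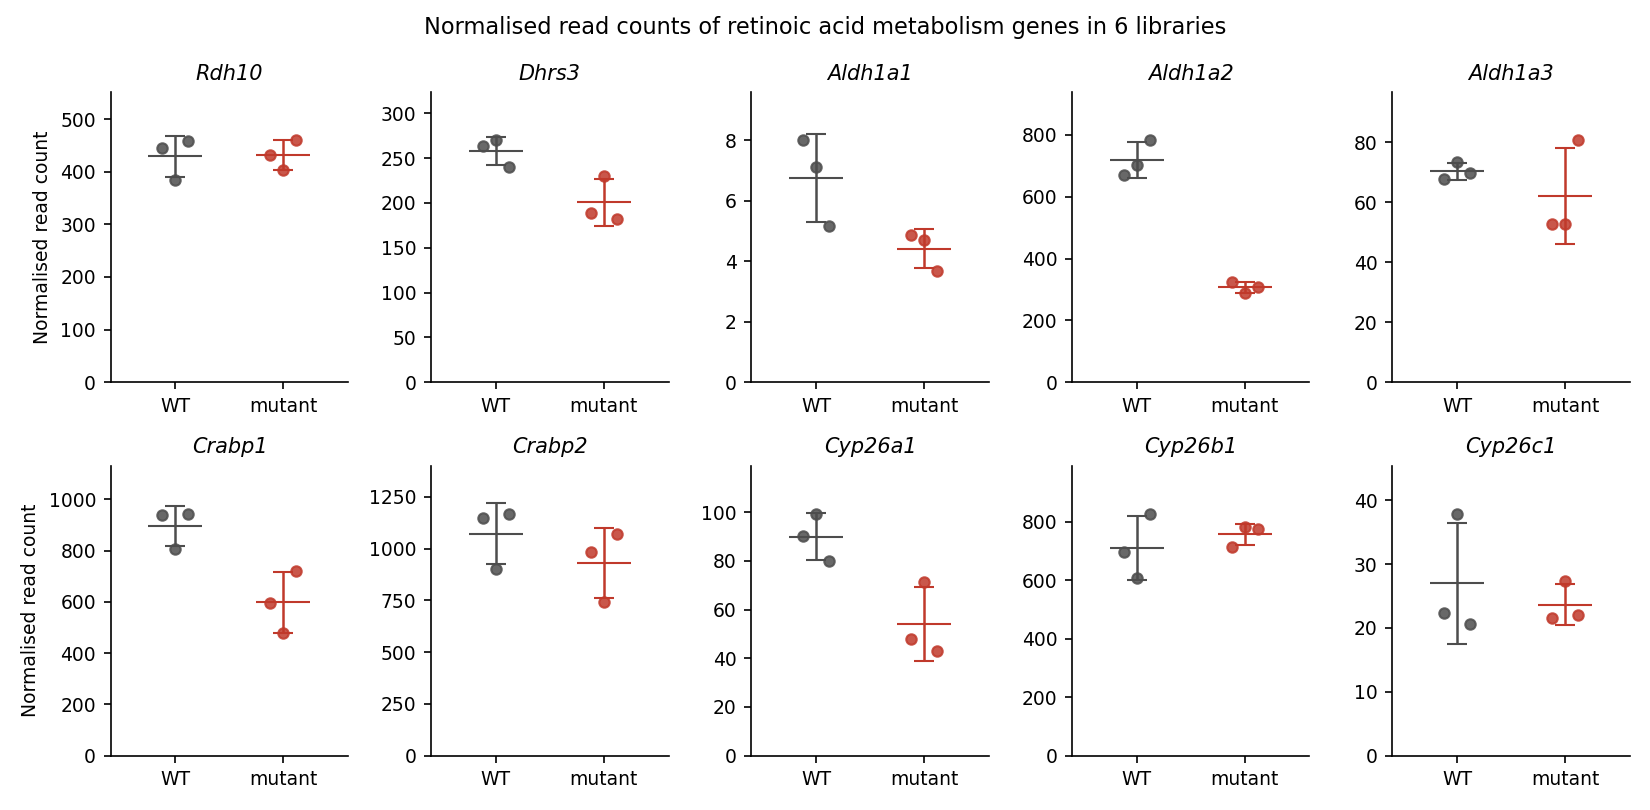
Normalised read counts (y axis, linear and starting at 0, with its own range for each gene) of the 10 genes in wildtype libraries (grey, in the order A, B, C) and mutant libraries (red, in the order D, E, F); each point is a library, horizontal lines are group means and bars are 1 SD (n = 3). The 3 mutant points of Aldh1a2 lie between 288.8 and 323.4, all below the wildtype points from 668.8 to 782.4, while those of Rdh10 and Cyp26b1 lie among the wildtype points.

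The first step of synthesis, set by Rdh10 and Dhrs3, showed a difference in Dhrs3 alone that was small and not called. Rdh10 (chromosome 1, 16105774 to 16133734, plus strand, GRCm38) had normalised counts of 445, 384.4 and 458.4 in the wildtype libraries and of 431.3, 402.7 and 459.8 in the mutant libraries. The groups lay over each other, with means of 429.3 ± 39.43 and 431.2 ± 28.57 (SD, n = 3 each). The authors' deposited table gave Rdh10 a log2 fold change of 0.0036 (SE 0.109), with a 95% interval from -0.21 to 0.22 and an adjusted p of 0.997.

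Dhrs3 (chromosome 4, 144892827 to 144928209, plus strand), which runs the step in reverse, had normalised counts of 262.9, 269.7 and 240.1 in wildtype libraries and of 188.5, 230.5 and 182.2 in mutant libraries. All mutant values were the lower ones, but library E came within 10 counts of wildtype library C. The means were 257.6 ± 15.46 and 200.4 ± 26.25 (SD, n = 3 each), which puts the mutant at 77.81% of wildtype. The authors' deposited table gave Dhrs3 a log2 fold change of -0.28 with an SE of 0.124 (p 0.0218, adjusted p 0.321, DESeq2 Wald test). When libraries were scaled by total reads the 2 groups of Dhrs3 overlapped.

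Aldh1a2, which makes retinoic acid from retinal, showed the largest difference of the 10 genes. It lies on chromosome 9, 71215789 to 71296243, on the plus strand. Its normalised counts were 668.8, 702.5 and 782.4 in the wildtype libraries and 323.4, 288.8 and 307 in the mutant libraries. The lowest wildtype library thus had more than the highest mutant library by a wide margin, and the libraries of each group lay close together, with a coefficient of variation of 8.13% in wildtype and 5.65% in mutant. The means were 717.9 ± 58.36 and 306.4 ± 17.32 (SD, n = 3 each), so the mutant stood at 42.68% of wildtype, a 2.343-fold fall.

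On the log2 scale the ratio of the Aldh1a2 means was -1.23 (SE 0.0818), and it ran from -1.28 to -1.16 when each library was left out in turn. The moderated log2 fold change in the authors' deposited table was -1.04 (SE 0.106), with an adjusted p of 1.61e-19 (DESeq2 Wald test). It was the 6th largest fall in that table, as deposited by the authors. With 4 libraries the authors' deposited table had -0.93 (SE 0.118, adjusted p 2.13e-12). The reads behind these values were 837, 594 and 606 in A to C and 465, 307 and 251 in D to F. An antisense pseudogene, Gm48124, overlaps Aldh1a2, and without the strand setting of the counting its reads cannot be told apart.

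The other 2 retinal dehydrogenase genes were much weaker. Aldh1a3 (chromosome 7, 66390890 to 66427517, minus strand) had normalised counts of 67.92, 73.33 and 69.72 in wildtype libraries and of 52.86, 52.69 and 80.71 in mutant libraries. Mutant libraries D and E were below every wildtype library and F was above every one, so the groups overlapped. The authors' deposited table gave it a log2 fold change of -0.11, with an SE of 0.149 (adjusted p 0.901).

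Aldh1a1 (chromosome 19, 20492715 to 20643465, plus strand) was close to the limit of detection, with 35 reads in all 6 libraries and 3 to 10 in each. Its normalised counts were 7.99, 7.096 and 5.165 in wildtype libraries and 4.869, 4.704 and 3.669 in mutant libraries. All mutant values were lower, but the smallest wildtype value rested on 4 reads. The authors' deposited table gave Aldh1a1 a moderated log2 fold change of -0.08 (SE 0.10, p 0.438) and no adjusted p, while the log2 ratio of the group means was -0.61 (SE 0.2278). The gene overlaps C730002L08Rik and Gm6684 on the opposite strand.

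Per kilobase of exon, a rough scale for comparing genes with each other, Aldh1a2 made up nearly all of the ALDH1A transcripts in both genotypes. Its share was 94.76%, 94.71% and 95.54% in wildtype libraries and 91.99%, 91.16% and 88.15% in mutant libraries. The summed level of the 3 genes per kilobase was 333.7 ± 25.56 in wildtype and 149.7 ± 8.471 in mutant (SD, n = 3 each). Neither Aldh1a1 nor Aldh1a3 had a higher mean in the mutant.

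Of the binding proteins, Crabp1 fell and Crabp2 was not called. Crabp1 (chromosome 9, 54764748 to 54773110, plus strand) had normalised counts of 938.8, 806.6 and 943.8 in wildtype libraries and of 595.4, 479.8 and 719.1 in mutant libraries. Every mutant library was below every wildtype library, and the nearest were F and B. The means were 896.4 ± 77.81 and 598.1 ± 119.7 (SD, n = 3 each), which puts the mutant at 66.72% of wildtype.

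For Crabp1 the authors' deposited table gave a log2 fold change of -0.48 with an SE of 0.118 (adjusted p 0.00323, DESeq2 Wald test). With 4 libraries the authors' deposited table gave it -0.43 (SE 0.109, adjusted p 0.0064). The log2 ratio of means was -0.58 (SE 0.1843) and ran from -0.74 without library F to -0.45 without library E.

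Crabp2 (chromosome 3, 87948666 to 87953376, plus strand) had normalised counts of 1146, 901.2 and 1168 in wildtype libraries and of 983.6, 743.2 and 1069 in mutant libraries. Mutant libraries D and F were above wildtype library B, so the groups overlapped. Its log2 fold change in the authors' deposited table was -0.16 (SE 0.119, adjusted p 0.728), with a 95% interval from -0.40 to 0.07.

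Both binding proteins were lowest in library B among wildtype and in library E among mutant, and their ratio within a library varied less than either gene. The ratio of Crabp1 reads to Crabp2 reads was 0.8194, 0.895 and 0.8077 in wildtype libraries and 0.6054, 0.6456 and 0.6728 in mutant libraries. These groups did not overlap, with means of 0.8407 ± 0.04739 and 0.6412 ± 0.03391 (SD, n = 3 each). Per kilobase of exon Crabp1 exceeded Crabp2 in every wildtype library, by 1.331 to 1.475 times. In the mutant libraries that ratio was 0.9979, 1.064 and 1.109, so the binding proteins stood at nearly equal levels on this scale.

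Among the breakdown enzymes the strongest gene, Cyp26b1, was not called and Cyp26a1 had the largest difference, which was not called either. Cyp26b1 (chromosome 6, 84571414 to 84593908, minus strand) had normalised counts of 697.5, 607.9 and 827.6 in wildtype libraries and of 714.4, 782.8 and 774.1 in mutant libraries. All mutant values lay inside the wildtype range. Its log2 fold change in the authors' deposited table was 0.08 (SE 0.109, adjusted p 0.91), with a 95% interval from -0.14 to 0.29.

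Cyp26a1 (chromosome 19, 37697798 to 37701536, plus strand), whose promoter window holds the response element printed above, had normalised counts of 90.29, 99.35 and 80.05 in wildtype libraries. In mutant libraries they were 48, 71.5 and 42.8. All mutant values were lower, and E was the nearest to wildtype. The means were 89.9 ± 9.656 and 54.1 ± 15.29 (SD, n = 3 each), which puts the mutant at 60.18% of wildtype.

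For Cyp26a1 the moderated log2 fold change in the authors' deposited table was -0.42 (SE 0.149), with a p of 0.00482 and an adjusted p of 0.12 (DESeq2 Wald test), which missed the threshold. With 4 libraries it was -0.34 in the authors' deposited table (SE 0.140, adjusted p 0.254). The log2 ratio of means was -0.73 (SE 0.2418), larger than the moderated value, and ran from -0.99 to -0.59 when each library was left out in turn. It rested on 439 reads, 35 of them in library F.

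Cyp26c1 (chromosome 19, 37685581 to 37693398, plus strand), the neighbour of Cyp26a1 on the same strand, was the weakest of the family. Its normalised counts were 22.37, 37.85 and 20.66 in wildtype libraries and 21.56, 27.28 and 22.01 in mutant libraries. The groups overlapped, and library B alone was high. Its log2 fold change in the authors' deposited table was -0.07 (SE 0.144, adjusted p 0.939).

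The 3 breakdown genes summed to 193.6 ± 11.56 per kilobase in wildtype and 182.3 ± 14.27 in mutant (SD, n = 3 each), groups that overlapped. Cyp26a1 made up 24.13%, 27.03% and 19.52% of that sum in wildtype libraries and 14.24%, 18.22% and 12.07% in mutant libraries. Its share was lower in every mutant library than in any wildtype library. In reads, Cyp26a1 exceeded its neighbour Cyp26c1 by 2.625 to 4.036 times in wildtype and by 1.944 to 2.621 times in mutant libraries, so libraries B and E had nearly the same ratio.

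**Figure D2:**
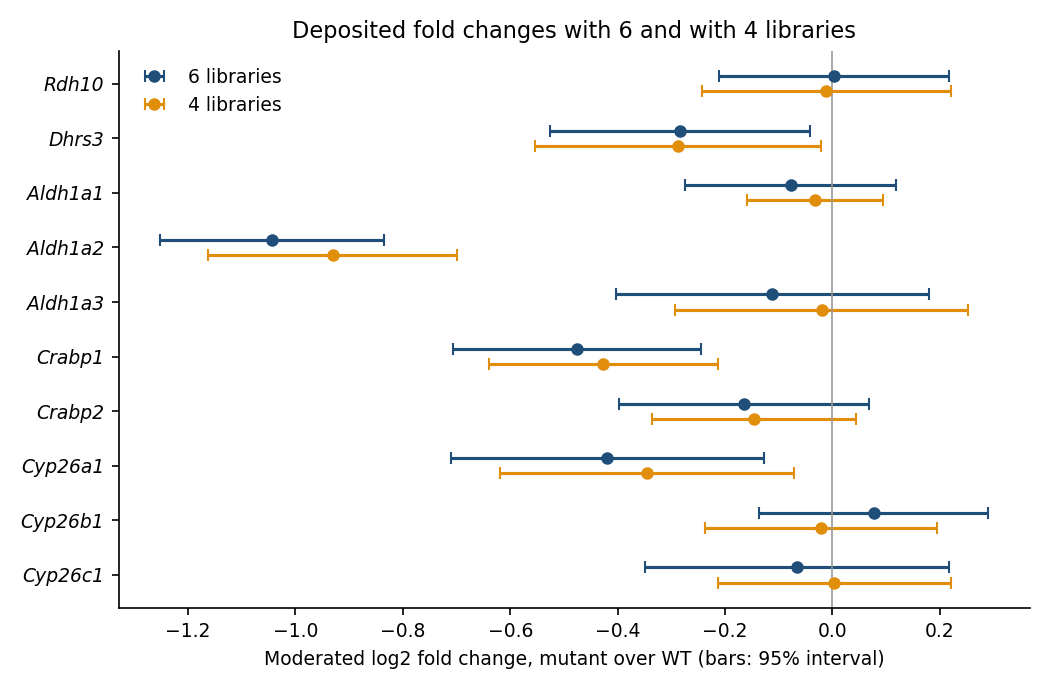
Moderated log2 fold changes, mutant over wildtype (x axis), of the 10 genes (y axis) in the authors' deposited tables of 6 libraries (blue) and of 4 of these libraries (orange), with 95% intervals as bars. The 2 tables share 4 libraries and are not independent. Aldh1a2 stands apart at -1.04 and -0.93, and the intervals of Aldh1a2, Crabp1, Cyp26a1 and Dhrs3 lie below 0 in both.

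The values per library were also compared by whether the groups overlapped. In 5 of the 10 genes, Aldh1a1, Aldh1a2, Dhrs3, Cyp26a1 and Crabp1, every mutant library was below every wildtype library, and in 0 every mutant library was above. Of these 5, the 4 other than Aldh1a1 were measured. Over all 14123 measured genes that were solved, 8.86% had all mutant libraries below and 8.85% had all mutant libraries above. With 3 libraries against 3, the smallest p that an exact two-sided permutation test can give is 0.10.

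Synthesis and breakdown transcripts stood in a different ratio in the libraries of each genotype. Per kilobase of exon, the ALDH1A sum over the CYP26 sum was 1.652, 1.768 and 1.749 in wildtype libraries and 0.9134, 0.707 and 0.8601 in mutant libraries. On this scale every wildtype library thus had more ALDH1A than CYP26 transcript and every mutant library had less. Which sum is the larger depends on the exon lengths used. In reads not divided by length, Aldh1a2 over Cyp26b1 ran from 0.9454 to 1.156 in wildtype libraries. The ALDH1A sum over the CYP26 sum per kilobase had means of 1.723 ± 0.06195 in wildtype and 0.8268 ± 0.1071 in mutant (SD, n = 3 each). These are transcript levels, and neither enzyme activity nor retinoic acid was measured.

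The size factor cancels in ratios of this kind, so they do not depend on how the libraries were scaled. Aldh1a2 over Rdh10, in reads, was 1.503, 1.828 and 1.707 in wildtype libraries and 0.75, 0.7173 and 0.6676 in mutant libraries. Aldh1a2 over Cyp26b1 was 0.9588, 1.156 and 0.9454 in wildtype libraries and 0.4528, 0.369 and 0.3965 in mutant libraries. In both ratios the groups lay far apart compared with the spread inside each.

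**Figure D3:**
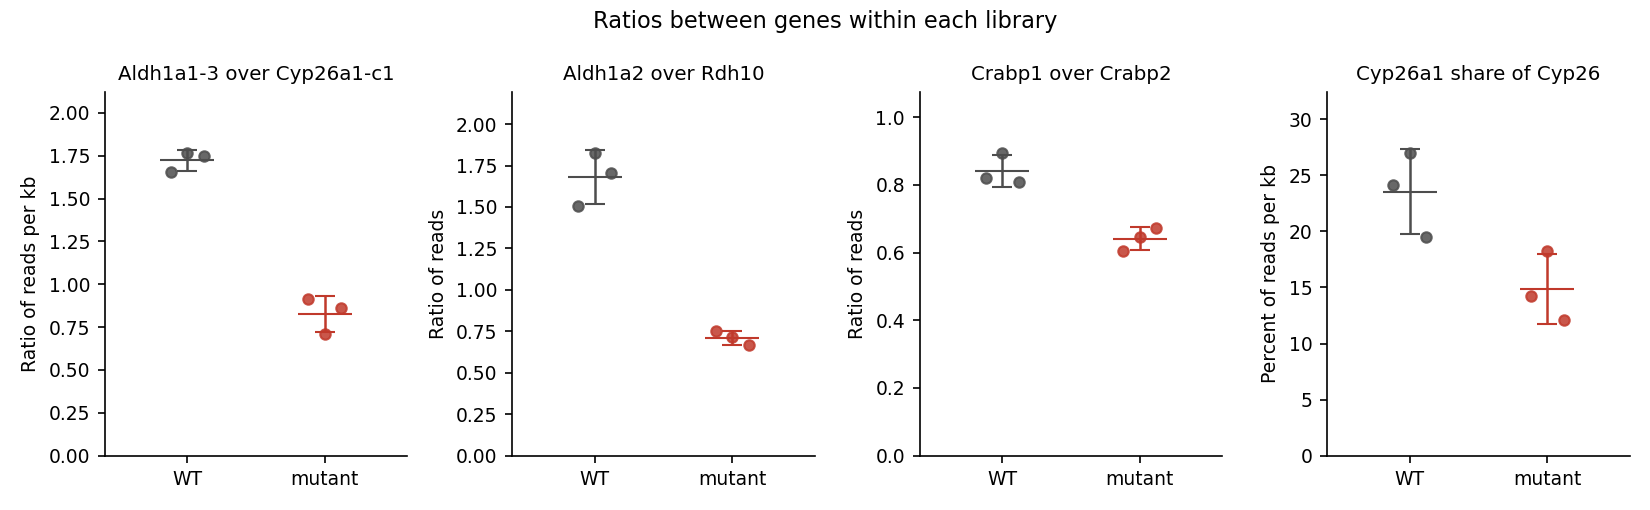
Ratios between genes within each library (y axes linear, starting at 0): summed Aldh1a1 to Aldh1a3 over summed Cyp26a1 to Cyp26c1 per kilobase of exon, Aldh1a2 over Rdh10 in reads, Crabp1 over Crabp2 in reads, and the percent of Cyp26a1 in the Cyp26 sum per kilobase. Points are libraries (grey wildtype A to C, red mutant D to F), lines are means and bars are 1 SD (n = 3); in each panel the 3 mutant points lie below the 3 wildtype points.

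By level per kilobase of exon, averaged over all 6 libraries, the order ran from the binding proteins to the weak enzymes. Crabp1 had 931.8 (range 598.3 to 1177) and Crabp2 757.8 (562.2 to 883.9), and their ranges overlapped. Aldh1a2 followed with 226.2 (127.6 to 345.6) and Cyp26b1 with 137.2 (113.6 to 154.6), which also overlapped. Rdh10 had 103.4 (92.4 to 110.5) and Dhrs3 78.23 (62.25 to 92.13), and neither range reached that of a neighbour in the order.

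Cyp26a1 had 36.31 per kilobase (21.58 to 50.1), touching the range of Cyp26c1 at 14.48 (11.82 to 21.66). Aldh1a3 at 14.34 (11.41 to 17.48) did not differ from Cyp26c1 beyond the spread, and Aldh1a1 was last at 1.131 (0.7431 to 1.618). The overlap of Aldh1a2 with Cyp26b1 came from the mutant libraries. In wildtype the level of Aldh1a2 per kilobase was 317.1 ± 25.78 against 132.9 ± 20.64 for Cyp26b1, and in mutant 135.3 ± 7.648 against 141.5 ± 6.958 (SD, n = 3 each).

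The libraries varied along a line that the genotype does not give. Libraries B and E, the pair that the second table leaves out, were the highest of their group for 3 members, Dhrs3, Cyp26a1 and Cyp26c1, and the lowest of their group for another 3, Rdh10, Crabp1 and Crabp2. The share of all genes with either pattern was not computed, so these counts are no result about the members. The summed counts of 10 epithelial markers were also highest in B and E, at 1810 and 1709, against 1185 to 1512 in the other libraries, and those of 8 endothelial markers were too, at 7355 and 7207 against 5767 to 6236. The defining epithelial marker Epcam had 274.4 in B and 279.4 in E, and 196.6 to 209.2 in the others. The part of epithelium and endothelium in the values of these members was not tested.

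Within each set of libraries Aldh1a2 differed by nearly the same factor. It stood at 43.4% of wildtype in libraries A, C, D and F and at 41.1% in library E against library B. Crabp1 stood at 69.8% and 59.5% in the same sets, Cyp26a1 at 53.3% and 72%, and Dhrs3 at 73.7% and 85.5%. Cyp26b1, in contrast, stood at 97.6% in the first set and at 129% in E against B. The second set has 1 library per genotype and no replicate.

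Markers of other cell types moved with the genotype. Of 10 muscle markers 6 were called higher and 0 lower in the authors' deposited table, and the sum of the 9 solved ones was 790.2 to 1216 in wildtype libraries and 1890 to 5888 in mutant libraries, highest in F. The muscle regulator Myog had 87.8 to 139 and 204.2 to 299.6, Myod1 had 14.2 to 21.29 and 31.05 to 53.81, and Myf5 had 4.731 to 10.39 and 11.83 to 18.34, in the same order. Myf5 was not among those called. Of 8 macrophage markers 3 were called higher and 0 lower in the authors' deposited table, with sums of 583.6 to 697.8 in wildtype and 911.9 to 1051 in mutant. The growth factor receptor Csf1r had 131.7 to 182.1 and 236.5 to 298.2, Adgre1 41.32 to 63.92 and 81.94 to 111, and Ptprc 52.73 to 70.96 and 76.51 to 89.38. Ptprc was not among those called.

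Neuronal and glial markers summed to less in the mutant. Of 8 measured neuronal markers, out of 10 listed, 5 were called lower and 0 higher in the authors' deposited table, and the sum of all 10 was 1132 to 1519 in wildtype and 646.3 to 791.2 in mutant. The neuronal tubulin Tubb3 had 99.42 to 246 in wildtype and 54.57 to 76.51 in mutant, Elavl4 33.57 to 86.34 and 20.17 to 25.68, and Elavl3 3.873 to 16.56 and 2.446 to 9.043. Elavl3 was not measured and not called. Of 7 measured glial markers, out of 8, 1 was called lower and 0 higher in the authors' deposited table, with sums of 1258 to 1678 and 1096 to 1229. The glial factor Sox10, which was not called, had 27.2 to 41.32 in wildtype and 15.9 to 19.76 in mutant.

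Genes of the labelled tissue were present throughout. Of 8 mesenchymal markers, 3 were called lower in the authors' deposited table, which were Prrx1, Twist1 and Shox2, and 0 higher. The 5 not called had log2 fold changes there of 0.20 for Pdgfra, 0.08 for Osr2, -0.10 for Col3a1, -0.32 for Col1a1 and -0.34 for Msx1. Without adjustment 5 of the 8 were lower and 1 higher at a p under 0.05 (DESeq2 Wald test). The 4 that could be solved, Twist1, Osr2, Msx1 and Shox2, summed to 2925 to 4391 in wildtype and 2146 to 2816 in mutant. Prrx1, Pdgfra, Col1a1 and Col3a1 are not in that sum. Epithelial, endothelial and erythroid markers had 0 called and overlapping sums of 1185 to 1810 and 1313 to 1709, of 5767 to 7355 and 6142 to 7207, and of 1265 to 1845 and 1355 to 1447. Of 6 pericyte markers 1 was called higher, with overlapping sums of 1136 to 1436 and 1330 to 1428 over the 5 solved ones. Without adjustment, at a p under 0.05, no epithelial or endothelial marker differed, 1 erythroid marker was higher, and no muscle or macrophage marker was lower and no neuronal or glial one higher. Fewer markers of these cell types were called with 4 libraries in the authors' deposited table, where 2 muscle and 2 macrophage markers were higher, 1 neuronal marker was lower and 0 glial markers were called, with 2 glial markers lower at a p under 0.05 without adjustment. Of the mesenchymal markers 3 were called lower and 1 higher in that table. No defining marker of any list was at 0.

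The part of these cell types in the values of Aldh1a2, Crabp1, Cyp26a1 and Dhrs3 was not tested. Library F had the most muscle transcript, and D and E also had more than any wildtype library. Without F the log2 ratio of means was -1.23 for Aldh1a2, -0.74 for Crabp1, -0.59 for Cyp26a1 and -0.30 for Dhrs3, against -1.23, -0.58, -0.73 and -0.36 with all libraries.

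Outside these 10 genes, the retinoid pathway list held 62 genes. Of these 42 were measured, and of the measured 1 rose, 0 fell and 41 did neither by the DESeq2 Wald test of the authors' deposited table. These counts stand beside 1.75% of all genes called higher and 1.16% lower. Without adjustment, 4 were higher and 1 lower at a p under 0.05, where 796 of all 14577 measured genes were higher and 759 lower. The median log2 fold change of the 42 was 0.05, beside -0.01 over all measured genes. With 4 libraries 0 of the 42 were called in either direction in the authors' deposited table, and without adjustment 4 were higher and 2 lower at a p under 0.05.

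Uptake and storage genes had 4 of 11 measured and 0 called, among them the retinol importer Stra6 with a log2 fold change of -0.09 (adjusted p 0.918) in the authors' deposited table. Other retinol and retinal oxidoreductases had 9 of 16 measured and 0 called. Coregulators had 9 of 9 measured and 0 called. Of the genes listed as responsive to retinoic acid 12 of 18 were measured, 1 was called higher and 0 lower. Without adjustment, the genes at a p under 0.05 were 1 coregulator and 3 responsive genes that were higher and 1 responsive gene that was lower, and none of the other groups.

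All 8 listed receptor and delivery genes were measured and 0 were called, none of them at a p under 0.05 without adjustment. The retinoic acid receptors had log2 fold changes of -0.09 for Rara, 0.04 for Rarb and -0.08 for Rarg in the authors' deposited table, with adjusted p-values of 0.913, 0.948 and 0.889. Their RXR partners had -0.01 for Rxra, 0.02 for Rxrb and 0.12 for Rxrg in the authors' deposited table, with adjusted p-values of 0.991, 0.97 and 0.896. Rarb, a known direct target of retinoic acid, had normalised counts of 425.1, 480.2 and 374.4 in wildtype libraries and of 470.9, 461 and 393.8 in mutant libraries, groups that overlapped.

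The called gene was Nr2f2, a nuclear receptor of the COUP-TF class that is known to respond to retinoic acid. Its normalised counts were 438.7, 415.1 and 431.2 in wildtype libraries and 561.3, 644.5 and 645.7 in mutant libraries. The groups did not overlap, and the authors' deposited table gave a log2 fold change of 0.45, with an SE of 0.104 (adjusted p 0.00113). With 4 libraries the authors' deposited table had 0.38, and its adjusted p of 0.0538 missed the threshold.

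**Figure D4:**
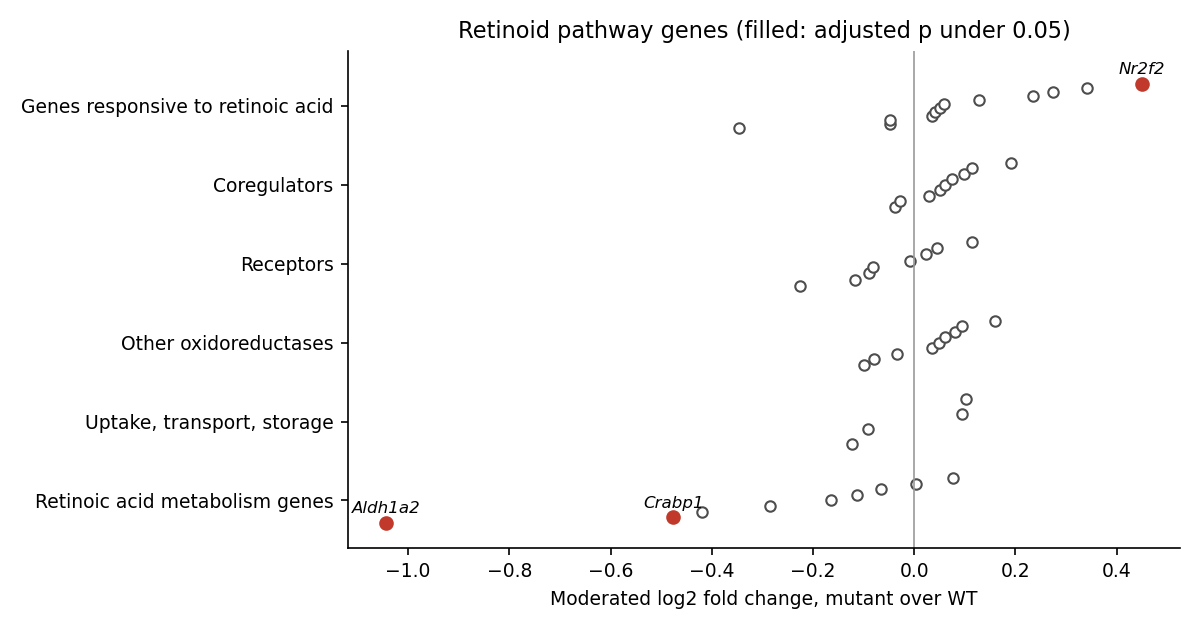
Moderated log2 fold changes, mutant over wildtype (x axis), of the measured retinoid genes in the authors' deposited table of 6 libraries, grouped by role (y axis; the vertical spread within a group only separates points). Filled red points have an adjusted p under 0.05 and are Aldh1a2 at -1.04, Crabp1 at -0.48 and Nr2f2 at 0.45; open points were not called.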

How the data were processed

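RNA-seq of 3 wildtype and 3 Wnt1Cre;Meis2f/f samples was deposited as 3 tables of the authors' comparisons. The authors used HISAT2, featureCounts and DESeq2, with the builds GRCm38 and mm10, per the submitters' processing notes, and no version, setting or annotation is stated in the sources used here. Per the labels' protocols, RNA was reverse transcribed and amplified before TruSeq library preparation, a step that can make low counts noisier. The base mean, a signal that is never negative, is the authors' mean of normalised read counts. The fold change and its SE are on the log2 scale, moderated toward 0, as deposited. The Wald statistic is a score deposited by the authors. Each p-value, raw or adjusted by Benjamini-Hochberg, comes from the DESeq2 Wald test as the authors deposited it. The third table was not used, and 27 rows of the first with date-like or repeated names were left out.

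The design text speaks of 1 library against 1 in each table, which the values contradict. Genes with a single read took 6 levels of base mean in the first table and 4 of these in the second, so they rest on 6 and 4 libraries. Whole counts per library were solved from the levels and the base means (10 and 15 digits) with Python 3.11.15, numpy 2.4.6 and pandas 2.3.3. Of 24394 genes 23957 had 1 solution, and the 437 others, mostly very highly expressed, have deposited values only. The solved genes hold 57.61% of the summed base mean. Size factors computed afresh from the solved counts by the median of ratios came within 0.186% of those read from the levels. Tested on simulated data of 4000 rows, the search solved 3982, and 99.95% of these had every count right. The simulated rows took their mean levels from genes already solved, so they do not show how the search does on the others. The solved counts are a reconstruction from what the authors deposited, and no count model was fitted to them. Genes were called at the authors' adjusted p under 0.05 and counted as measured at a base mean of at least 10. Exon lengths are the union of exons in GENCODE vM21 (GRCm38), and promoters are from RefSeq (GRCm38.p6).

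The members, the lists and the tests were chosen with earlier results of these data known. Named genes were the members, called pathway genes, 6 retinoid receptors, Meis2 and defining markers, of which a few are not reported here. The 8 mesenchymal markers and Stra6 were named after their values were seen. Alternatives were the table of 4 libraries, other thresholds, another p adjustment, other base mean minima, leaving out each library, scaling by total reads and unmoderated ratios. The p-values weigh each fold change against its SE, which rests only on these samples.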

Additional observations from a re-analysis of the deposited data

How the results depend on the processing

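The members called, 2 lower and 0 higher, were the same in number in the table of 4 libraries, at adjusted p thresholds of 0.01 and 0.10, and with Benjamini-Hochberg adjustment over every gene with a p. The pathway genes called higher were 1, against 0 in the table of 4 libraries and 2 at a threshold of 0.10. Members whose groups did not overlap were 5, and 4 when libraries were scaled by total reads, an alternative chosen after seeing the data. That scaling shifted all genes by 0.0277 on the log2 scale. Direction changed for 3 members whose values lie near 0. With 4 libraries the deposited log2 value was -0.0110 for Rdh10, -0.0211 for Cyp26b1 and 0.0038 for Cyp26c1. Leaving out each library in turn moved the log2 ratio of means between -0.0668 and 0.0564 for Rdh10, between -0.0104 and 0.2140 for Cyp26b1, and between -0.3502 and 0.1346 for Cyp26c1. Without libraries B and E the ratios were -0.0198, -0.0351 and 0.0182, an alternative chosen after seeing the data. The cause was not tested. Without moderation the log2 values of Aldh1a1, Aldh1a2 and Cyp26a1 were -0.61, -1.23 and -0.73. Depth limits Aldh1a1, with 3 to 10 reads per library. No paired analysis was possible because the solved libraries carry no replicate number of the labels.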

Other observations

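Among the listed retinoid genes, 3 varied more between libraries than between genotypes, and they were picked after their values were seen. Egr1, an immediate early gene, had normalised counts of 463.6 in wildtype library B and 520.3 in mutant library E, against 1097 and 1486 in the other wildtype libraries and 979.4 and 1125 in the other mutant libraries. Btg2, another gene of rapid response, had 383.2 in B and 454.4 in E, against 738.3 and 692 in A and C and 623.9 and 884.2 in D and F. Rdh5, a retinol dehydrogenase, went the other way, with 118.3 in B and 124.2 in E, against 55.93 and 56.81 in A and C and 62.6 and 56.25 in D and F. Between genotypes the authors' deposited table put their log2 fold changes at -0.05, 0.04 and 0.04, with adjusted p-values of 0.949, 0.962 and 0.969 (DESeq2 Wald test). Libraries B and E are those that the authors' second table leaves out.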
